A study of Mus musculus with 14 samples.

Results

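The Bcl-2 family with Bim was examined as 10 genes, chosen by name: the pro-survival Bcl2, Mcl1 and Bcl2l1, the BH3-only Bcl2l11 (which encodes Bim), Bmf, Bid, Bad and Bbc3, and the effectors Bax and Bak1. Each of 9 genes had 1 named probe set, a group of short probes read as 1 value, among 19937 named genes, and all 9 were among the 14438 genes bright enough to be tested. Bax was not analysed here, as no named probe set was found for it, so Bak1 is the one effector measured. RNA had been taken on day 6 of infection from effector CD8+ T cells on a C57BL/6J background, and 14 arrays fell into 5 groups. These were KLRG1lo cells labelled Id2KOBimKO, Id2KO and BimKO with 2 arrays each, wild-type (WT) KLRG1hi cells with 3 arrays, and WT KLRG1lo cells with 5. In every group the cells came from fetal liver chimeras and were moved into congenic recipient mice, which were infected with Listeria that carry ovalbumin. The labels name OT-I, a T cell receptor that sees ovalbumin, for each group but Id2KOBimKO. The labels do not say how Id2 and Bim were inactivated, nor whether arrays of a group came from separate animals or pools, so p-values measure the spread between these arrays, which may be technical.

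The Bcl-2 family sets whether a cell opens the outer membrane of its mitochondria and dies. Bcl-2, Mcl-1 and Bcl-xL (from Bcl2l1) hold the effectors Bax and Bak in check, while the BH3-only proteins bind the pro-survival proteins, or the effectors themselves, and so promote death. In T cells Bim is the member best known for the loss of effector cells after an infection, and Bcl-2 is known to be kept up by IL-7 in the cells that live on as memory. Id2 is an inhibitor of E proteins, which bind the E-box in DNA, and Id2-deficient effector CD8+ T cells have been described as surviving poorly. The groups therefore bear on whether transcripts of this family differ with Id2, with Bim, with both, or with KLRG1, a surface receptor that marks short-lived effector cells.

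Promoter windows are shown for Bcl2l11, the gene targeted in Bim deficiency, and for Bmf, the member farthest apart between arrays labelled BimKO and WT. They are RefSeq sequences of build GRCm38.p6, each spanning a transcript start and mostly upstream of it, written 5′ to 3′ on the gene's strand. Capitals mark E-boxes, searched as CANNTG, and FOXO motifs, searched as GTAAACA or its complement TGTTTAC, so both strands were covered and the motifs do not overlap one another here. The first Bcl2l11 window is chr2:128125788-128126087 on the plus strand, the second is chr2:128127325-128127624 on the plus strand, and the Bmf window, its most upstream, is chr2:118549637-118549936 on the minus strand.
Bcl2l11 upstream start: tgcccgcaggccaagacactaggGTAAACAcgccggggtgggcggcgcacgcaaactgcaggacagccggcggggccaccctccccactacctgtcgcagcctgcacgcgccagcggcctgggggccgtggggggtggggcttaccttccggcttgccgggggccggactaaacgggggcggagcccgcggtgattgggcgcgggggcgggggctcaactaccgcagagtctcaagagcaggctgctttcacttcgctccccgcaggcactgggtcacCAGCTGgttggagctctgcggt
Bcl2l11 downstream start: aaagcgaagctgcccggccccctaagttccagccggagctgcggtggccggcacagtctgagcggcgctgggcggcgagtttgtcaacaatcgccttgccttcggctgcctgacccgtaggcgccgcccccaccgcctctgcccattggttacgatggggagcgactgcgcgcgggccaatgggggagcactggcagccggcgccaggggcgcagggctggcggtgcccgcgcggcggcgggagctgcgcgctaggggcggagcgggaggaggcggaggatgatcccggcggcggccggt
Bmf upstream start: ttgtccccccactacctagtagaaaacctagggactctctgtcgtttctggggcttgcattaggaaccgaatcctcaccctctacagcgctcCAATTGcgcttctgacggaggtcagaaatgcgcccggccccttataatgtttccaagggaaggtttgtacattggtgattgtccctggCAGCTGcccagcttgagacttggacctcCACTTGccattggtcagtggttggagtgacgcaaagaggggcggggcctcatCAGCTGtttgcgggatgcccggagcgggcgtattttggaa
The upstream Bcl2l11 window held 1 E-box and 1 FOXO motif, its downstream window held neither, and the Bmf window held 4 E-boxes. All 10 genes had a window, 18 in all, and 13 of these held an E-box, or 72.2%, against 72.3% of all 32851 windows in the table. A FOXO motif was in 2 of the 18 windows, 1 of Bcl2l11 and 1 of Bbc3, against 3.65% of all windows. These are matches of letters and no measure of binding, and the single Bcl2 window held neither motif.

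Values are log2 of the authors' linear RMA signal. Median linear signals of the arrays lay between 49.2 and 56.8, and the number of arrays limits the precision. Markers of CD8 T cells were high throughout: all 8 with a probe set were above the median of unnamed probe sets (5.01 to 5.38) on each array, with a mean of 11.06 to 11.59 on the 6 arrays of mutant cells, 10.89 to 11.40 in WT KLRG1hi and 10.92 to 11.36 in WT KLRG1lo. Id2 was 9.84 and 9.64 on arrays labelled Id2KOBimKO and 9.88 and 9.73 in Id2KO, against 10.75 and 10.93 in BimKO and 10.78 to 11.16 in WT KLRG1lo. Xist and the Y-linked Eif2s3y set both Id2KO arrays apart: Xist was 4.73 ± 0.37 (SD, n = 2) and Eif2s3y 7.79 ± 0.57 (SD, n = 2) there, against 9.53 ± 0.56 and 3.18 ± 0.12 (SD, n = 5) in WT KLRG1lo. Over all other groups the means were 8.90 to 10.11 and 3.04 to 3.45, so Id2KO differs from them in the sex of the cells. Where Id2KO is compared with WT KLRG1lo or Id2KOBimKO, genotype and sex cannot be told apart. Summaries that draw on the Id2KO arrays carry this difference too. Cd74, a gene of antigen-presenting cells, was at 7.77 to 8.73 on 5 arrays, Id2KOBimKO array 2, BimKO array 2 and WT KLRG1lo arrays 3 to 5, and at 4.67 to 6.25 on the other 9. On these 5 arrays the 8 B cell markers had a mean of 5.97 to 6.55, against 4.75 to 5.39 on the others, with 1 to 4 of them at or below the median of unnamed probe sets, against 4 to 6. The 11 myeloid markers had a mean of 5.78 to 6.41 there, against 5.42 to 5.79 on the others. The 3 red cell precursor markers had a mean of 6.19 to 6.97 on the 5 arrays, against 5.59 to 5.93 on the others, and among them Alas2, a gene of haem synthesis, was at 6.45 to 8.20, against 5.11 to 5.62. The arrays were also split at the largest gap between their medians of unnamed probe sets, 0.085 log2 in a range of 5.01 to 5.38. The labels do not name this split, and the next gap was nearly as wide. Set 1 held 6 arrays of lower background, among them WT KLRG1lo arrays 1 and 2. Set 2 held 8 of higher background, among them both BimKO arrays. In such bulk samples fewer cells of a type and less RNA per cell cannot be told apart. The part of these traits in the results was not tested, except where a value without the arrays or within a set is given.

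Mean Bcl2l11 signal was lower by value in the groups labelled Bim-deficient than in their matched groups. The differences were small, did not pass the test and hung on single arrays. Its log2 signal was 7.59 and 8.01 on the Id2KOBimKO arrays, 7.88 and 8.03 on the Id2KO arrays, and 7.36 and 7.66 on the BimKO arrays. It was 7.33, 7.14 and 7.54 in WT KLRG1hi, and 7.57, 7.92, 7.47, 7.44 and 7.59 in WT KLRG1lo. BimKO array 1 lay below all WT KLRG1lo arrays and BimKO array 2 within their range, and the Id2KO arrays lay at its top. BimKO minus WT KLRG1lo was -0.09 (95% interval -0.47 to 0.29, two-sided limma test with Benjamini-Hochberg adjustment over the genes tested, adjusted p = 0.882), and Id2KOBimKO minus Id2KO was -0.16 (-0.61 to 0.30, adjusted p = 1.0). Within array set 2, which holds both BimKO arrays, BimKO minus WT KLRG1lo was 0.01. Id2KOBimKO minus Id2KO was -0.29 within set 1 and -0.02 within set 2. Without BimKO array 1 the first difference was 0.06, and without Id2KOBimKO array 1 the second was 0.05. Neither the labels nor the files place the probes with respect to the deletion, so the signal does not check the label, and Bim status rests on the labels.

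In both Bim states mean Bcl2l11 signal was higher by value with Id2 loss, and the difference did not pass the test. Id2KO minus WT KLRG1lo was 0.36 (SE 0.18, adjusted p = 0.275), Id2KOBimKO minus BimKO was 0.29 (SE 0.22, adjusted p = 1.0), and their mean was 0.32 (95% interval 0.03 to 0.62, unadjusted p = 0.0344, adjusted p = 0.62). The Id2KOBimKO value hung on single arrays: it was 0.50 without Id2KOBimKO array 1, 0.08 without Id2KOBimKO array 2 and 0.14 without BimKO array 1. The group means ran from 7.96 ± 0.10 in Id2KO and 7.80 ± 0.30 in Id2KOBimKO (SD, n = 2 each) through 7.60 ± 0.19 in WT KLRG1lo (SD, n = 5) and 7.51 ± 0.21 in BimKO (SD, n = 2) to 7.34 ± 0.20 in WT KLRG1hi (SD, n = 3). No 2 neighbours in that order were parted by more than their spread. Id2KO minus WT KLRG1lo was 0.14 within array set 1 and 0.53 within set 2, with 1 Id2KO array in each. Without the 5 arrays of raised Cd74 the mean Id2 effect on Bcl2l11 was 0.22, and with quantile normalization it was 0.18.

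**Figure D1:**
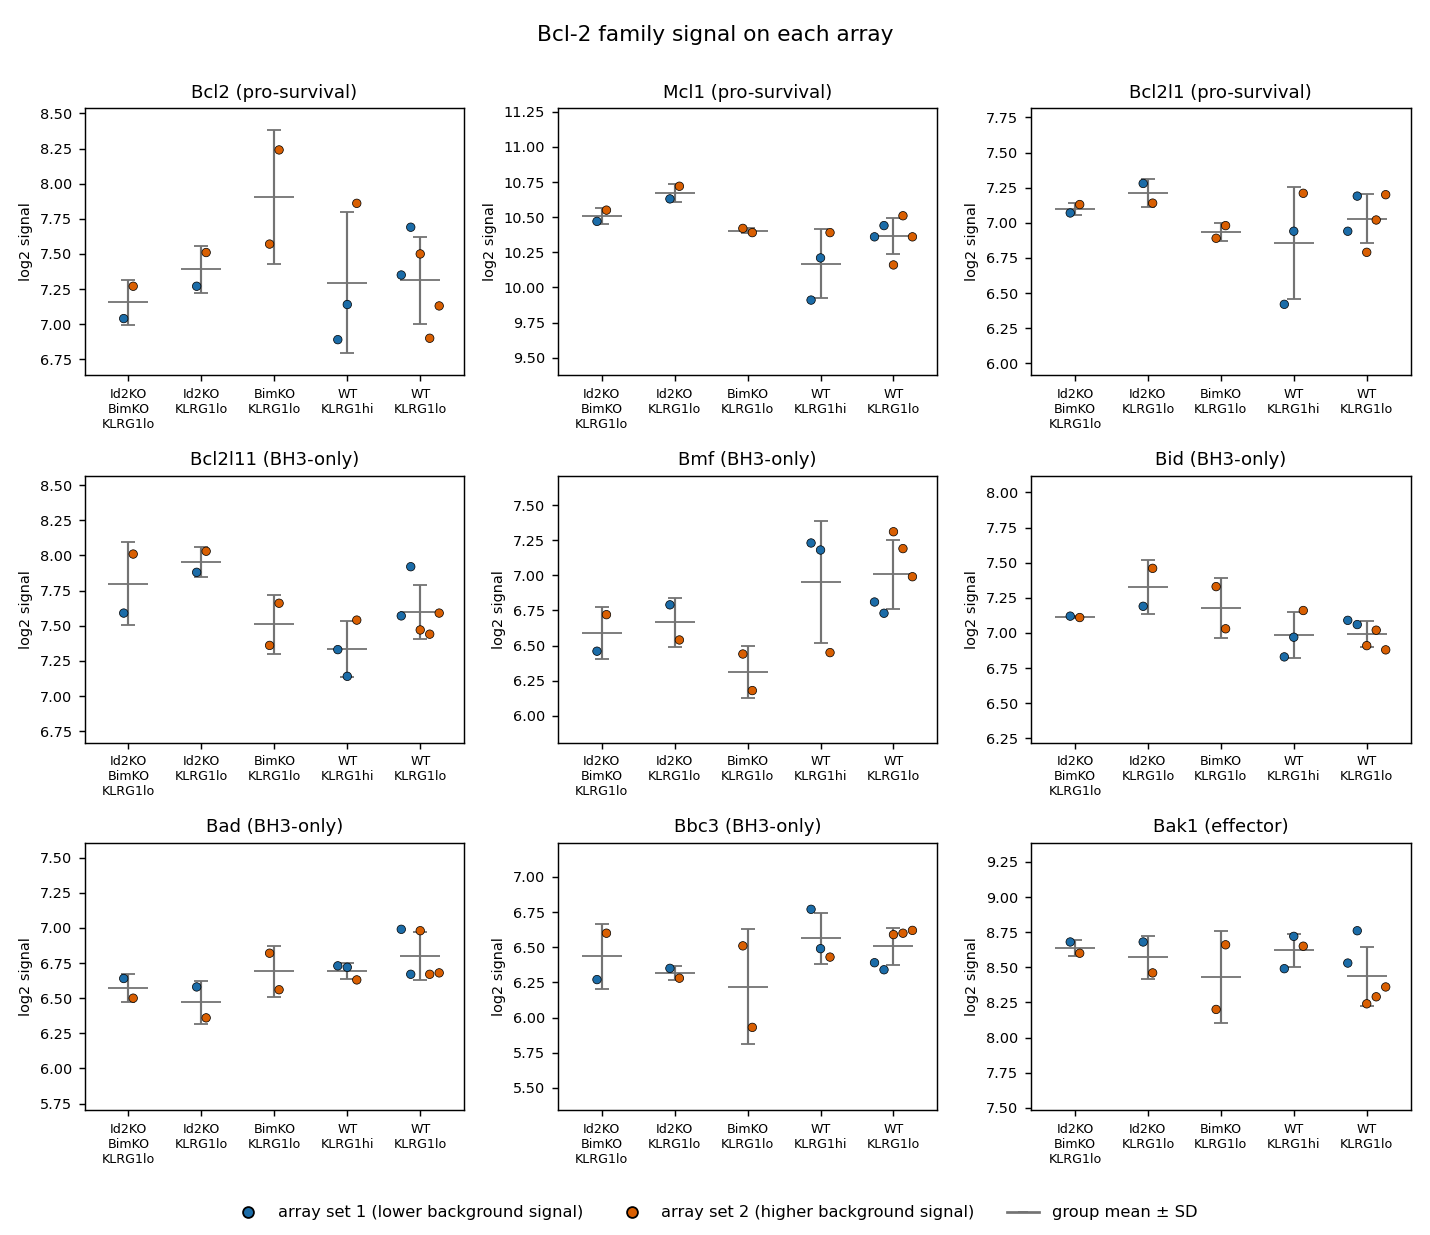
Log2 signal of the 9 measured Bcl-2 family genes on each of the 14 arrays, by group, with the group mean and SD as grey bars and colour for the array set by background signal; every panel spans the same height on the log2 axis. Bmf is lowest on both BimKO arrays (6.44 and 6.18), Bcl2 is highest on BimKO array 2 (8.24), and Bcl2l11 on the BimKO arrays (7.36 and 7.66) lies near the WT KLRG1lo arrays (7.44 to 7.92).

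Bcl2, the pro-survival gene first found in this family, varied most from array to array. Its log2 signal was 7.04 and 7.27 on the Id2KOBimKO arrays, 7.27 and 7.51 on the Id2KO arrays, and 7.57 and 8.24 on the BimKO arrays. It was 6.89, 7.14 and 7.86 in WT KLRG1hi and 7.35, 7.69, 7.50, 6.90 and 7.13 in WT KLRG1lo. BimKO array 2 was the highest of all, while BimKO array 1 was inside the WT KLRG1lo range, and both Id2KOBimKO arrays were below both BimKO arrays. Within groups its SD was 0.36, above that of 90.4% of the genes tested, whose median was 0.23.

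BimKO minus WT KLRG1lo for Bcl2 was 0.59 (95% interval 0.05 to 1.13, unadjusted p = 0.0343, adjusted p = 0.657). Id2KOBimKO minus BimKO was -0.75 (-1.39 to -0.10, unadjusted p = 0.0257, adjusted p = 1.0), and Id2KO minus WT KLRG1lo was 0.08 (-0.46 to 0.62). The difference between these Id2 effects, the interaction of Id2 and Bim, was -0.83 (SE 0.40, unadjusted p = 0.0542, adjusted p = 0.726), which did not pass. Much of the BimKO value came from 1 array: without BimKO array 2 the BimKO difference from WT was 0.25. Without the 5 arrays of raised Cd74, which include it, the difference was 0.05. That fit left BimKO array 1, of set 2, against WT KLRG1lo arrays 1 and 2, both of set 1. Id2KOBimKO minus BimKO was -0.41 without BimKO array 2 and -0.53 without those 5, with 1 array left in each group. Within array set 2 alone Bcl2 was 7.90 in BimKO against 7.18 in WT KLRG1lo, and 7.27 in Id2KOBimKO against 7.90 in BimKO. Both BimKO arrays, 7.57 and 8.24, were above the 3 WT KLRG1lo arrays of that set, 6.90 to 7.50.

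Mcl1, a short-lived pro-survival protein's gene, was among the steadier members. Its log2 signal was 10.47 and 10.55 on the Id2KOBimKO arrays, 10.63 and 10.72 on the Id2KO arrays, 10.42 and 10.39 on the BimKO arrays, 9.91, 10.21 and 10.39 in WT KLRG1hi, and 10.16 to 10.51 (median 10.36) in WT KLRG1lo. Both Id2KO arrays were above every WT KLRG1lo array. Id2KO minus WT KLRG1lo was 0.31 (95% interval -0.02 to 0.65, adjusted p = 0.276), 0.23 within array set 1 and 0.38 within set 2. It turned to -0.04 under quantile normalization, which evens out the differing spread of the arrays. Its sign did not turn with array spread as a covariate. That spread, measured as the distance between the quartiles of log2 signal on an array, was 2.83 and 2.87 in Id2KO against 2.46 to 2.82 in WT KLRG1lo. Its part in the Mcl1 difference was not tested.

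Bcl2l1, the gene of Bcl-xL, had 7.07 and 7.13 on the Id2KOBimKO arrays, 7.28 and 7.14 on the Id2KO arrays, 6.89 and 6.98 on the BimKO arrays, 6.42, 6.94 and 7.21 in WT KLRG1hi, and 6.79 to 7.20 (median 7.02) in WT KLRG1lo. Groups overlapped except that both Id2KOBimKO arrays were above both BimKO arrays and below both Id2KO arrays. Its differences ran from -0.17 (WT KLRG1hi minus WT KLRG1lo, SE 0.17) to 0.18 (Id2KO minus WT KLRG1lo, SE 0.19), none past the test.

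Bmf, a BH3-only protein that binds pro-survival members when cells lose contact or growth signals, was lowest on the arrays labelled BimKO. Its log2 signal was 6.46 and 6.72 on the Id2KOBimKO arrays, 6.79 and 6.54 on the Id2KO arrays, and 6.44 and 6.18 on the BimKO arrays. It was 7.23, 7.18 and 6.45 in WT KLRG1hi and 6.81, 6.73, 7.31, 7.19 and 6.99 in WT KLRG1lo. Both BimKO arrays lay below every WT KLRG1lo array, and the 2 other mutant groups straddled or lay under the lowest of these. The BimKO values were dim: counted from the 60th percentile of all probe sets they were 0.22 and -0.03, against 0.58 to 1.04 in WT KLRG1lo.

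BimKO minus WT KLRG1lo for Bmf was -0.69 (SE 0.22, 95% interval -1.15 to -0.23, unadjusted p = 0.00536), the smallest unadjusted p of any member in the comparisons made, and it did not pass (adjusted p = 0.657). By p it ranked 68 of the genes in its comparison. The difference was negative under every alternative run, from -0.82 without BimKO array 1 to -0.33 without the 5 arrays of raised Cd74. Within array set 2, which holds both BimKO arrays, Bmf was 6.31 in BimKO and 7.16 on WT KLRG1lo arrays 3 to 5, and the 2 WT KLRG1lo arrays of set 1 averaged 6.77. Cd74 was raised on all 3 WT KLRG1lo arrays with the highest Bmf, and also on BimKO array 2, which had the lowest Bmf of all. Bmf, Bcl2l11 and Bcl2l1 lie on chromosome 2. For Id2KO minus WT KLRG1lo the Bmf difference was -0.34 (SE 0.22, adjusted p = 0.32), which turned to 0.10 with array spread as a covariate.

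Bid, a BH3-only protein that caspase-8 cleaves into its active form, had 7.12 and 7.11 on the Id2KOBimKO arrays, 7.19 and 7.46 on the Id2KO arrays, and 7.33 and 7.03 on the BimKO arrays. It was 6.83, 6.97 and 7.16 in WT KLRG1hi, and 7.09, 7.06, 6.91, 7.02 and 6.88 in WT KLRG1lo. Both Id2KO arrays were above all WT KLRG1lo arrays, at a difference of 0.33 (95% interval 0.01 to 0.66, unadjusted p = 0.0469, adjusted p = 0.275), with 0.12 within array set 1 and 0.52 within set 2. The within-group SD of Bid was 0.14, below that of most genes, with 8.6% of the genes tested under it.

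Bad, which is held inactive when survival kinases phosphorylate it, was lower by value in Id2KO. It had 6.64 and 6.50 on the Id2KOBimKO arrays, 6.58 and 6.36 on the Id2KO arrays, 6.82 and 6.56 on the BimKO arrays, 6.63 to 6.73 in WT KLRG1hi, and 6.99, 6.67, 6.98, 6.67 and 6.68 in WT KLRG1lo. Both Id2KO arrays were below all WT KLRG1lo arrays, 3 of which lay close together just above them. The values were dim: counted from the 60th percentile of all probe sets they were 0.45 and 0.18 in Id2KO, against 0.41 to 0.80 in WT KLRG1lo. Id2KO minus WT KLRG1lo was -0.33 (95% interval -0.67 to 0.00, adjusted p = 0.275), with -0.25 within array set 1 and -0.42 within set 2, and Id2KOBimKO minus BimKO was -0.12 (SE 0.19).

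Bbc3, which encodes the p53-induced Puma, had 6.27 and 6.60 on the Id2KOBimKO arrays, 6.35 and 6.28 on the Id2KO arrays, and 6.51 and 5.93 on the BimKO arrays. It ran from 6.43 to 6.77 in WT KLRG1hi and from 6.34 to 6.62 in WT KLRG1lo. These values were close to the 60th percentile of all probe sets, 6.13 to 6.27 across arrays, so a fall would be hard to see. BimKO minus WT KLRG1lo was -0.29 (95% interval -0.67 to 0.08, adjusted p = 0.659) and 0.14 without the 5 arrays of raised Cd74. It rested on BimKO array 2: without that array it was -0.004, and without BimKO array 1 it was -0.58.

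Bak1, the gene of the effector Bak, varied least over the 14 arrays, between 8.20 and 8.76. It had 8.68 and 8.60 on the Id2KOBimKO arrays, 8.68 and 8.46 on the Id2KO arrays, 8.20 and 8.66 on the BimKO arrays, 8.49 to 8.72 in WT KLRG1hi, and 8.24 to 8.76 in WT KLRG1lo. The groups overlapped in each comparison, and the differences ran from -0.01 (BimKO minus WT KLRG1lo, 95% interval -0.38 to 0.36) to 0.22 (Id2KOBimKO minus BimKO, -0.23 to 0.66).

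None of the 9 members passed the limma test in any of the 7 comparisons. Between Id2KO and WT KLRG1lo 0 of 9 passed, where 0.111% of the genes tested did, and Bid alone had an unadjusted p under 0.05, against 18.1% of genes. Arrays did not overlap for 3 members, against 28.5% of genes: Mcl1 and Bid were higher, where 14.2% of genes were, and Bad lower, where 14.2% were. The difference was positive for 6 members and for 52.2% of genes. These shares were near those of all genes.

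Between Id2KOBimKO and BimKO 0 of 9 passed, as did 0% of genes, and Bcl2 alone had an unadjusted p under 0.05, against 1.81% of genes. Arrays did not overlap for 4 members, against 29.7% of genes: Mcl1, Bcl2l1 and Bmf were higher, where 17.6% of genes were, and Bcl2 lower, where 12% were. The difference was positive for 6 members and for 56.7% of genes. For the mean Id2 effect 0 of 9 passed against 0.18% of genes, Bcl2l11 alone had an unadjusted p under 0.05 against 7.11%, and 6 members were positive against 52.6%.

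Between BimKO and WT KLRG1lo 0 of 9 passed, as did 0% of genes, and Bcl2 and Bmf had an unadjusted p under 0.05, against 6.91% of genes. Bmf alone did not overlap, against 12.6% of genes, made up of 6.99% of genes lower and 5.6% higher, and 3 members were positive against 47.3% of genes. Between Id2KOBimKO and Id2KO 0 of 9 passed against 0.0277% of genes, and 0 had an unadjusted p under 0.05 against 0.803%. There 3 members, Mcl1, Bcl2l1 and Bid, were lower without overlap against 21% of genes, 0 were higher without overlap against 16.4%, and 37.4% of genes did not overlap either way. The difference was positive for 3 members and 44.7% of genes. For the interaction 0 of 9 passed against 0.0277% of genes, 0 had an unadjusted p under 0.05 against 4.27%, and 4 were positive against 48.2%.

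Between WT KLRG1hi and WT KLRG1lo 0 of 9 passed against 0.942% of genes, and 0 had an unadjusted p under 0.05 against 7.2%. All 9 members overlapped, where 4.18% of genes did not, made up of 2.41% of genes higher and 1.77% lower, and 2 members were positive against 50.5% of genes. This comparison and those of Id2KO and BimKO share the WT KLRG1lo arrays.

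**Figure D2:**
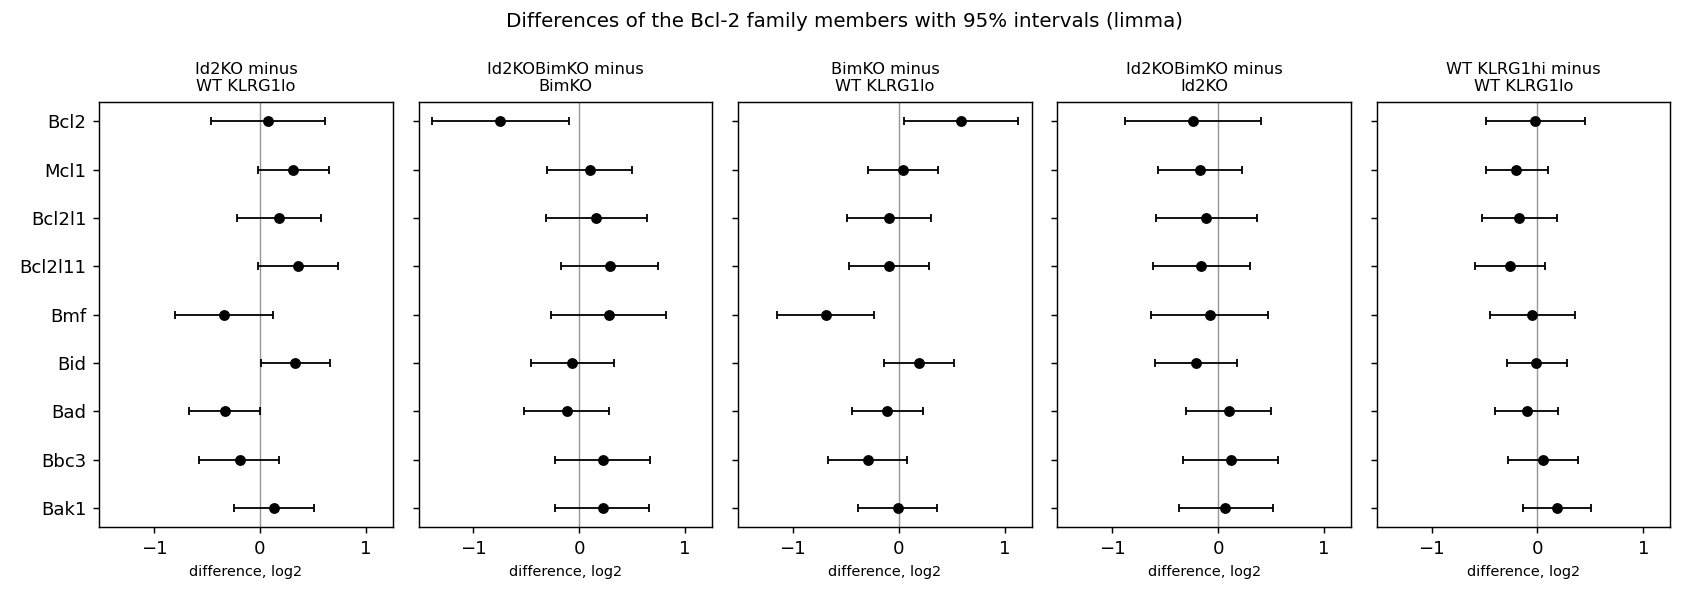
Fitted log2 differences of the 9 members in 5 comparisons, the first-named group minus the second, with 95% intervals from limma on the horizontal axis. Intervals leave 0 for Bcl2 in Id2KOBimKO minus BimKO (-0.75) and BimKO minus WT KLRG1lo (0.59), for Bmf in BimKO minus WT KLRG1lo (-0.69) and for Bid in Id2KO minus WT KLRG1lo (0.33), and none of these passed after adjustment over all genes.

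WT KLRG1hi minus WT KLRG1lo ran from -0.26 for Bcl2l11 to 0.18 for Bak1. In this comparison the widest interval was that of Bcl2, -0.49 to 0.45 around -0.02, and the narrowest was that of Bid, -0.29 to 0.28 around -0.01. For Bcl2l11 WT KLRG1hi minus WT KLRG1lo was -0.26 (-0.59 to 0.07, adjusted p = 0.883), so a Bcl2l11 signal in KLRG1hi cells higher by more than 0.07 log2 lay outside it. Each of the 3 pro-survival members was lower by value in KLRG1hi cells, Mcl1 by a difference of -0.20 (-0.49 to 0.10), Bcl2l1 by -0.17 and Bcl2 by -0.02. WT KLRG1hi array 1 was the lowest of the 14 arrays for Bcl2, Mcl1, Bcl2l1 and Bid. It also had the narrowest spread between quartiles of all arrays, 2.44, where the widest was 2.87. The part of this spread in its low values was not tested. The sign of some of these differences turned with the array set: for Bcl2 WT KLRG1hi minus WT KLRG1lo was -0.50 within set 1 and 0.69 within set 2, where WT KLRG1hi has 1 array, and for Bmf 0.44 and -0.72. For Bcl2l11 the same values were -0.51 and 0.04.

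Pro-survival and pro-death members were set against each other on each array, as the mean of the 3 pro-survival values minus the mean of the 6 pro-death values, each counted from its mean in WT KLRG1lo. The result was 0.06 and 0.05 on the Id2KOBimKO arrays, 0.14 and 0.26 on the Id2KO arrays, and 0.17 and 0.52 on the BimKO arrays. It was -0.51, -0.12 and 0.33 in WT KLRG1hi, whose mean of -0.10 was 0.11 without array 1, and -0.03, 0.18, -0.11, -0.07 and 0.03 in WT KLRG1lo. All 6 mutant arrays were above 0, yet only 2 of them, Id2KO array 2 and BimKO array 2, were above the highest WT KLRG1lo array. The 3 WT KLRG1hi arrays covered the whole range of the others but for BimKO array 2. Among all arrays, WT KLRG1hi array 1 had the narrowest spread of signal, whose part in its value was not tested. The BimKO mean was 0.35 ± 0.25 and the Id2KO mean 0.20 ± 0.09 (SD, n = 2 each), and no test was made of this summary. Bcl2l11 was counted as a pro-death member on every array, those labelled Bim-deficient included.

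**Figure D3:**
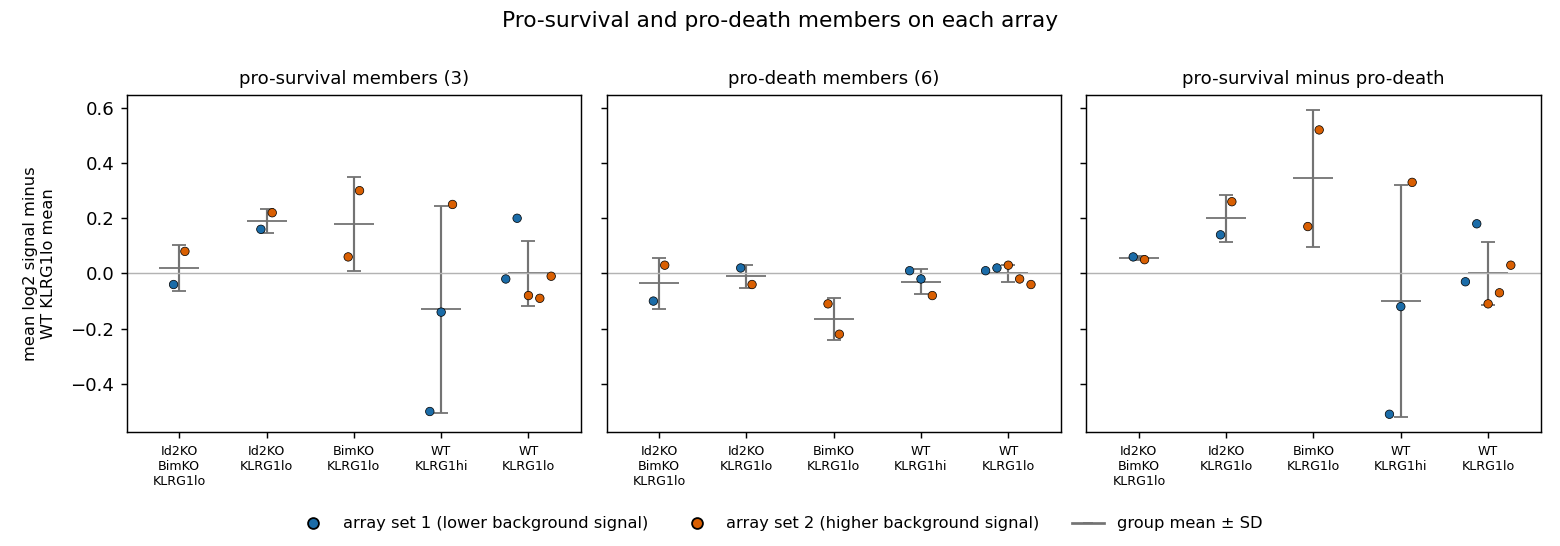
Mean log2 signal of the 3 pro-survival members, of the 6 pro-death members, and their difference on each array, each counted from the WT KLRG1lo mean, with group mean and SD as grey bars and colour for the array set. The pro-survival mean runs from -0.50 to 0.30 and the pro-death mean from -0.22 to 0.03, ranges not directly comparable as the first averages fewer genes. The difference is highest on BimKO array 2 (0.52) and lowest on WT KLRG1hi array 1 (-0.51).

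The lower pro-death mean on the BimKO arrays, -0.11 and -0.22, had Bmf as its lowest member by difference (-0.69). On BimKO array 1 Bcl2l11 (7.36) and Bak1 (8.20) were also below their WT KLRG1lo means of 7.60 and 8.44, while Bbc3 was at its WT KLRG1lo mean of 6.51. On BimKO array 2 Bbc3 was at 5.93. Bid lay at 0.19 (SE 0.16) in the same comparison. The higher pro-survival mean, 0.06 and 0.30, came from Bcl2 (0.59), with Mcl1 at 0.04 and Bcl2l1 at -0.09.

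Of 17 other Bcl-2 family genes listed, 12 were tested and 0 passed the limma test in any comparison. An unadjusted p under 0.05 was seen for 1 of the 12, Bnip3, in Id2KO against WT KLRG1lo, where 18.1% of genes had one, and in the mean Id2 effect, where 7.11% did. In Id2KO against WT KLRG1lo their median difference was -0.20, beside 0.03 over all genes tested. Bnip3, which encodes a hypoxia-induced protein of mitochondria, was at -0.85 there (SE 0.32, adjusted p = 0.275). Its signal was near background: 4.30 to 4.48 in Id2KO and 4.86 to 5.81 in WT KLRG1lo, by the brighter of its 2 probe sets. Both Id2KO values were below the median of unnamed probe sets, 5.01 to 5.38, so the size of this difference is uncertain. In BimKO against WT KLRG1lo the median was -0.03, beside -0.02 over all genes, with the BH3-only genes Hrk at -0.37 and Bik at -0.32, which did not pass (adjusted p = 0.657 for both). Pmaip1, which encodes the Mcl-1 antagonist Noxa, was at -0.22 in Id2KOBimKO minus BimKO and at 0.21 between the WT populations (adjusted p = 1.0 and 0.907).

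Genes that act after the mitochondria open, the apoptosome and its inhibitors, gave 0 calls among 14 tested of 16 listed in each comparison, with 3 of 14 at an unadjusted p under 0.05 in Id2KO against WT KLRG1lo, a share near the 18.1% of all genes. In Id2KO against WT KLRG1lo 13 of 14 differences were positive, beside 52.2% of all genes, with a median of 0.30, beside 0.03 over all genes. The Id2KO arrays also had a wider spread between quartiles, 2.83 and 2.87 against 2.46 to 2.82, whose part here was not tested. The smallest p were those of Diablo, whose protein lifts the block on caspases (0.77, SE 0.28, adjusted p = 0.275), Casp6 (0.56) and the X-linked Aifm1 (0.43). Diablo and Casp6 were dim, at 5.12 to 6.46 and 5.95 to 6.56 in WT KLRG1lo, where the 60th percentile of all probe sets was 6.13 to 6.27 across arrays. In Id2KOBimKO against BimKO the median was 0.02, with 8 of 14 positive, beside 56.7% of all genes. The median of the 8 CD8 T cell markers was 0.33 and 0.24 in these comparisons, beside 0.03 over all genes in each.

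Among 23 tested of 28 genes that regulate the family's proteins, 1 rose and 1 fell between the WT populations, where 0.942% of all genes passed, and 0 passed elsewhere. An unadjusted p under 0.05 was seen for 8 of the 23 between the WT populations, against 7.2% of genes. The list was chosen with earlier results of these data known, so this share is a description only. Gzmb, whose human product can cleave Bid, rose by 1.5 in WT KLRG1hi against WT KLRG1lo (SE 0.19, adjusted p = 0.00044), and Il7r, a receptor chain whose signal sustains Bcl-2, fell by 1.48 (SE 0.22, adjusted p = 0.0017). Bid and Bcl2 themselves were at -0.01 and -0.02 in that comparison. Il7r had the same signs as Bcl2 by value in the mutants: 0.52 in BimKO minus WT KLRG1lo and -0.89 in Id2KOBimKO minus BimKO (SE 0.25 and 0.30, adjusted p = 0.657 and 1.0). Its log2 signal was 9.53 ± 0.02 in Id2KOBimKO, 10.12 ± 0.10 in Id2KO and 10.42 ± 0.18 in BimKO (SD, n = 2 each), against 9.90 ± 0.30 (SD, n = 5) in WT KLRG1lo. Foxo1, of the FOXO transcription factors known to drive Bcl2l11, was at 0.48 (SE 0.21) and Casp8 at 0.61 (SE 0.22) in Id2KO minus WT KLRG1lo, and neither passed (adjusted p = 0.275 for both). Foxo3, another of these factors, did not share the higher value, with a mean of 8.15 in Id2KO and 8.21 in WT KLRG1lo.

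Of 7 Id and E protein genes, Id2 alone passed, falling by 1.13 in Id2KO against WT KLRG1lo (SE 0.19, adjusted p = 0.0162) and by 1.11 in the mean Id2 effect (adjusted p = 0.00137), where 0.111% and 0.18% of all genes passed. In Id2KOBimKO against BimKO Id2 was at -1.10 (SE 0.22, adjusted p = 0.587), where no gene passed. Id3 was higher by value with Id2 loss and did not pass. Its mean was 7.86 ± 0.65 in Id2KO against 6.48 ± 0.48 in WT KLRG1lo. In Id2KOBimKO it was 7.81 ± 0.60 against 6.83 ± 0.04 in BimKO, a difference of 0.98 (SE 0.38).

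Genes whose values ran most like those of Bcl2l11 and Bcl2 were sought over the 14 arrays among 13560 of the genes tested, after those with a predicted or clone name were left out. With group means subtracted, Tbc1d2b (Pearson r = 0.965), Fam111a (0.945) and Ano8 (0.929) were nearest to Bcl2l11, and Brip1os (0.944), Arfgef2 (0.930) and Pitpnb (0.926) to Bcl2. Without that subtraction Jaml (0.870), Abitram (0.856) and Ablim1 (0.855) were nearest to Bcl2l11, and Tonsl (0.875), the inhibitory receptor gene Lag3 (0.863) and Nup43 (0.856) to Bcl2. Within the family, with group means subtracted, Bcl2 and Bcl2l11 were at r = 0.727, Bcl2 and Bmf at -0.704, and Bcl2l11 and Bmf at -0.582. Without that subtraction the same pairs were at 0.281, -0.678 and -0.422. Even with it, Bcl2 ranked 226 of the 13560 genes by likeness to Bcl2l11, so many genes outside the family were nearer. All arrays share the same processing and differ in spread, so these are descriptions of 14 arrays.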

How the data were processed

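Gene expression was measured on arrays of sorted cells. The authors deposited 1 linear intensity per probe set and array, made with RMA per the submitters' processing notes, which name mm9 and no version. The deposited values, 34760 on each of 14 arrays, were turned into log2 with no offset. Probe sets were named from the platform annotation (1 name for 21640, several for 1321, none for 11799), updated by Entrez number through RefSeq names, where 21553 were found. The brightest probe set stood for a gene. Genes above the 40th percentile of an array on at least 2 arrays, 14438 of 19937, were tested with limma 3.58.1 in R 4.3.3, with 5 group means, 9 residual and 7.99 prior degrees of freedom, two-sided, Benjamini-Hochberg adjusted, threshold 0.05. The model was tested on simulated data. Members and lists were chosen with earlier results of these data known. Named genes were all members, then list genes that passed or else those with the smallest p, and nearest genes by correlation. Alternatives changed the filter, normalization, variance model, samples, block, probe sets, offset, spread and array set.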

Additional observations from a re-analysis of the deposited data

How the results depend on the processing

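Over 1161 values of 63 member differences under the alternatives run, no member passed; the smallest adjusted p was 0.117, for Bcl2l11 in Id2KO against WT KLRG1lo without WT KLRG1lo replicate 2. Of these values 1072 kept their direction and 89 changed sign, each from a difference that had not passed, and the causes were not tested. The settings that drop arrays fit fewer samples. When 1 array was left out, the pro-survival minus pro-death level ran from 0.02 to 0.1 in Id2KOBimKO (0.05 with all arrays), 0.14 to 0.26 in Id2KO, 0.17 to 0.52 in BimKO and -0.31 to 0.11 in WT KLRG1hi, the last a change of sign.

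The count of genes that passed depended on the setting. For WT KLRG1hi against WT KLRG1lo, 136 genes became 218 under quantile normalization, 42 with the replicate block, 78 in a fit on the groups compared, 376 with array spread as a covariate and 33 without the 5 arrays of raised Cd74, a setting chosen after seeing the data. Leaving out 1 array gave 45 to 179, the 45 coming without WT KLRG1hi replicate 2; dropping WT KLRG1lo replicate 1, 3, 4 or 5 gave 89, 84, 87 or 73. For Id2KO against WT KLRG1lo, 16 became 5 with the replicate block, 26 in the fit on the groups compared, 4 without the 5 arrays and 1 to 39 when 1 array was left out: 1 without either Id2KO array and 39 without WT KLRG1lo replicate 2. For the mean Id2 effect, 26 became 8 with the block, 52 with the spread covariate, 3 without the 5 arrays and 8 to 31 when 1 array was left out (9 and 8 without Id2KO replicates 1 and 2, 14 and 15 without Id2KOBimKO replicates 1 and 2). For Id2KOBimKO against BimKO, 0 became 1 under quantile normalization, 4 with the spread covariate and 0 to 3 when 1 array was left out (3 without BimKO replicate 1). For BimKO against WT KLRG1lo, leaving out 1 array gave 0 to 8 (8 without BimKO replicate 1). For Id2KOBimKO against Id2KO, 4 became 7 in the fit on the groups compared and 1 to 4 when 1 array was left out (1 without either Id2KO array). For the interaction, 4 became 1 without the 5 arrays and 0 to 6 when 1 array was left out (0 and 1 without Id2KO replicates 1 and 2).

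Replicate numbers were checked as pairs: over 21 same-numbered pairs of arrays the correlation of deviations from group means ran from -0.524 to 0.41, and 10 were over 0.1. In groups of 2 the deviations mirror each other, so some values repeat. Every pair would have had to be over 0.1, and no label names a shared animal or batch, so the numbers were not used as pairs; whether some arrays share a source was not tested. With the replicate block no member passed, and the sign turned for Bmf between the WT populations (0.003) and Bcl2l1 in BimKO against WT KLRG1lo (0.005).

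Other signs that turned are given by setting. Under quantile normalization Id2KO minus WT KLRG1lo was -0.12 for Bcl2, -0.04 for Mcl1 and -0.17 for Bak1, the mean Id2 effect was -0.002 for Bak1, and Mcl1 was -0.06 in BimKO minus WT KLRG1lo and 0.03 in Id2KOBimKO minus Id2KO. The interaction was 0.09 for Mcl1, 0.1 for Bcl2l1 and 0.16 for Bcl2l11. With array spread as a covariate, Id2KO minus WT KLRG1lo was -0.36 for Bcl2, -0.11 for Bcl2l1 and Bak1, 0.1 for Bmf and 0.06 for Bbc3. The mean Id2 effect was -0.004 for Bcl2l1 and 0.23 for Bmf, Id2KOBimKO minus Id2KO was 0.009 for Bcl2, 0.06 for Bcl2l1 and -0.02 for Bbc3, the interaction 0.22 for Bcl2l1 and 0.07 for Bcl2l11, and Bmf between the WT populations 0.03. With the array set as a block, WT KLRG1hi minus WT KLRG1lo was 0.02 for Bcl2 and 0.006 for Bid, BimKO minus WT KLRG1lo was 0.07 for Bak1, and the interaction was 0.02 for Bcl2l1. Without the 5 arrays of raised Cd74, Bbc3 was 0.14 in BimKO minus WT KLRG1lo, -0.24 in Id2KOBimKO minus BimKO, -0.05 in Id2KOBimKO minus Id2KO, -0.14 in the mean Id2 effect and -0.18 in the interaction. There WT KLRG1hi minus WT KLRG1lo was 0.18 for Bmf and -0.02 for Bak1, Id2KO minus WT KLRG1lo was -0.13 for Bcl2 and -0.07 for Bak1, and the interaction 0.04 for Bcl2l1 and 0.02 for Bcl2l11.

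When 1 array was left out in turn, signs turned for differences of up to 0.22 in size with all arrays, and the range over the arrays is given. A group of 2 then has a lone array, assumed to vary like the other groups. For WT KLRG1hi minus WT KLRG1lo it was -0.3 to 0.19 for Bcl2, -0.35 to 0.05 for Bcl2l1, -0.19 to 0.2 for Bmf, -0.09 to 0.07 for Bid and -0.05 to 0.12 for Bbc3. For Id2KO minus WT KLRG1lo it was -0.05 to 0.2 for Bcl2. For Id2KOBimKO minus BimKO it was -0.22 to 0.09 for Bid, -0.25 to 0.005 for Bad, -0.07 to 0.51 for Bbc3 and -0.02 to 0.45 for Bak1. For the mean Id2 effect it was -0.1 to 0.03 for Bmf and -0.13 to 0.16 for Bbc3. For BimKO minus WT KLRG1lo it was -0.01 to 0.08 for Mcl1, -0.24 to 0.06 for Bcl2l11, -0.23 to 0.02 for Bad and -0.24 to 0.22 for Bak1. For Id2KOBimKO minus Id2KO it was -0.37 to 0.05 for Bcl2l11, -0.21 to 0.05 for Bmf, -0.01 to 0.21 for Bad, -0.05 to 0.28 for Bbc3 and -0.03 to 0.18 for Bak1. For the interaction it was -0.09 to 0.05 for Bcl2l1, -0.28 to 0.14 for Bcl2l11 and -0.15 to 0.31 for Bak1. 

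Signal over background limits Bbc3 most, and it also limits Bmf on the BimKO arrays and Bad on the Id2KO arrays. The pairs of arrays in 3 of the groups limit each comparison of mutant cells.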
